A study of Mus musculus with 5 samples.

Results

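Cells take up, release and sense iron through a small set of proteins, and the messenger RNA of 10 of them was followed in mouse hearts: the uptake genes Tfrc, Slc11a2, Slc39a14 and Steap3, the export genes Slc40a1, Cp and Heph, and the sensing genes Aco1, Ireb2 and Fbxl5. The genes were picked by name for their function, with earlier results of these data known. Each of the 10 symbols matched 1 gene ID of the 49315 in every count table. The groups were 3 heart libraries labelled HFHS-Fe, whose mice ate food rich in fat and sucrose (HFHS), and 2 labelled chow-Fe, whose mice ate chow. Both diets ran for 18 weeks, and both groups were given iron dextran once by vein, 48 hours before the heart was perfused and taken as a mixture of all its cells. Iron dextran is iron held in a polysaccharide shell that macrophages break down. No library without iron is part of the comparison, so it shows a difference between diets after iron and not an effect of iron. The sources used here do not give strain, sex or age. The labels do not say that each library is a separate mouse, so p-values cover the spread between libraries, which may be technical.

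Most cells import iron by binding transferrin at the transferrin receptor, taking the complex into endosomes, reducing the ferric iron there and pumping it into the cytosol. Surplus iron is stored in ferritin or leaves through ferroportin, the only known iron exporter of mammalian cells, with the help of copper ferroxidases. The iron regulatory proteins IRP1 and IRP2 close the loop when iron is scarce, by binding hairpins in messenger RNAs called iron-responsive elements. An element in the 3′ untranslated region protects the transferrin receptor message from decay, while an element in the 5′ untranslated region blocks translation of the ferroportin and ferritin messages. The heart takes up transferrin-bound iron through this route, and when plasma transferrin is saturated also free iron through metal transporters and calcium channels.

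These hairpins are shown because they set which of the messages can be protected from decay and which are only blocked in translation. The GENCODE M21 transcripts (GRCm38) were searched, on the transcript strand alone, for an unpaired C, then 5 stem bases, a loop of CAGTG plus any base, and 5 stem bases that pair with the first 5, G-T pairs allowed. Among the 10 genes the search found 4 elements in the 3′ untranslated region of Tfrc and 1 in the 5′ untranslated region of Slc40a1. Each was found in 1 coding transcript, of 3 annotated for Tfrc and 4 for Slc40a1. The Tfrc elements lie on the plus strand at chr16:32631219-32631247, chr16:32631598-32631626, chr16:32631663-32631691 and chr16:32631710-32631738. The Slc40a1 element lies on the minus strand at chr1:45925465-45925493. The ferritin heavy chain gene Fth1 (plus strand, chr19:9982732-9982760) and light chain gene Ftl1 (minus strand, chr7:45459779-45459807) are shown for comparison, both with their element in the 5′ untranslated region. Capitals mark the unpaired C and the 6-base loop, with 6 bases on each side of the element.
Tfrc element 1: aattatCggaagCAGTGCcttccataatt
Tfrc element 2: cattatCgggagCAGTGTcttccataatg
Tfrc element 3: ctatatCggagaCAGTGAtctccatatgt
Tfrc element 4: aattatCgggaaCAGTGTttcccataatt
Slc40a1 element: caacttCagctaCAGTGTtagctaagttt
Fth1 element: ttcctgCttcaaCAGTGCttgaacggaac
Ftl1 element: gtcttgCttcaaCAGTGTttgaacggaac

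A match of these letters is a description of the sequence and not a measured binding site. Of the tested genes with a transcript sequence, 2.1% held a match somewhere in a transcript. The 6 coding transcripts of Slc11a2 held none, which says only that these letters and pairs are not in them. Counts per gene pool all transcripts, so forms of Tfrc, Slc40a1, Slc11a2 or Cp that differ at their ends were not told apart.

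On the counts as deposited, 3 of 4 uptake genes and 2 of 3 sensing genes rose in HFHS-Fe hearts. Of the 3 export genes 0 passed in edgeR, at an unadjusted p of 0.05 or in DESeq2. With gene length and GC content allowed for, as set out below, 2 of 4 uptake and 1 of 3 sensing genes rose and 1 of 3 export genes fell. Of the 10 genes, 5 rose (Tfrc, Slc11a2, Slc39a14, Aco1 and Ireb2) and none fell at an adjusted p of 0.05 in edgeR's quasi-likelihood test, where 38.1% of 14221 tested genes passed in either direction, 19.4% as higher and 18.7% as lower. No member fell at an unadjusted p of 0.05 either, and none fell in DESeq2. The HFHS-Fe libraries lay wholly above the chow-Fe libraries for the same 5 genes, as for 29.2% of tested genes, and wholly below for none, as for 29.4%. The groups did not overlap in either direction for 58.5% of tested genes. The median log2 fold change of the 10 genes was 0.24, against -0.01 over all tested genes.

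Fold changes in these libraries also followed gene length, and all 10 genes have exons longer in sum than the median of 4009 bases. Among 10 equal bins of tested genes by exon length, the median log2 fold change was -0.47 in the shortest bin and 0.32 in the longest. The bins that hold the 10 genes had medians of 0.030 to 0.32. The median and the shares called over all tested genes are thus not matched to the 10 genes in length. Each gene is therefore set below beside the median of its own length bin and beside a fit with offsets for the trend of every library with exon length and GC content. With those offsets 30.9% of genes passed, 2258 of 14193 as higher and 2126 as lower. Of the 10 genes 3 rose (Tfrc, Slc11a2 and Aco1) and 1 fell (Cp). The median log2 fold change of the 10 genes was then 0.051, against -0.0093 over all tested genes. The rises of Slc39a14 and Ireb2 did not pass there. Steap3, Slc40a1 and Heph had log2 fold changes of 0.040, -0.29 and 0.063 with the offsets and did not pass. Their length bins had medians of 0.15, 0.21 and 0.21 without offsets.

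**Figure D1:**
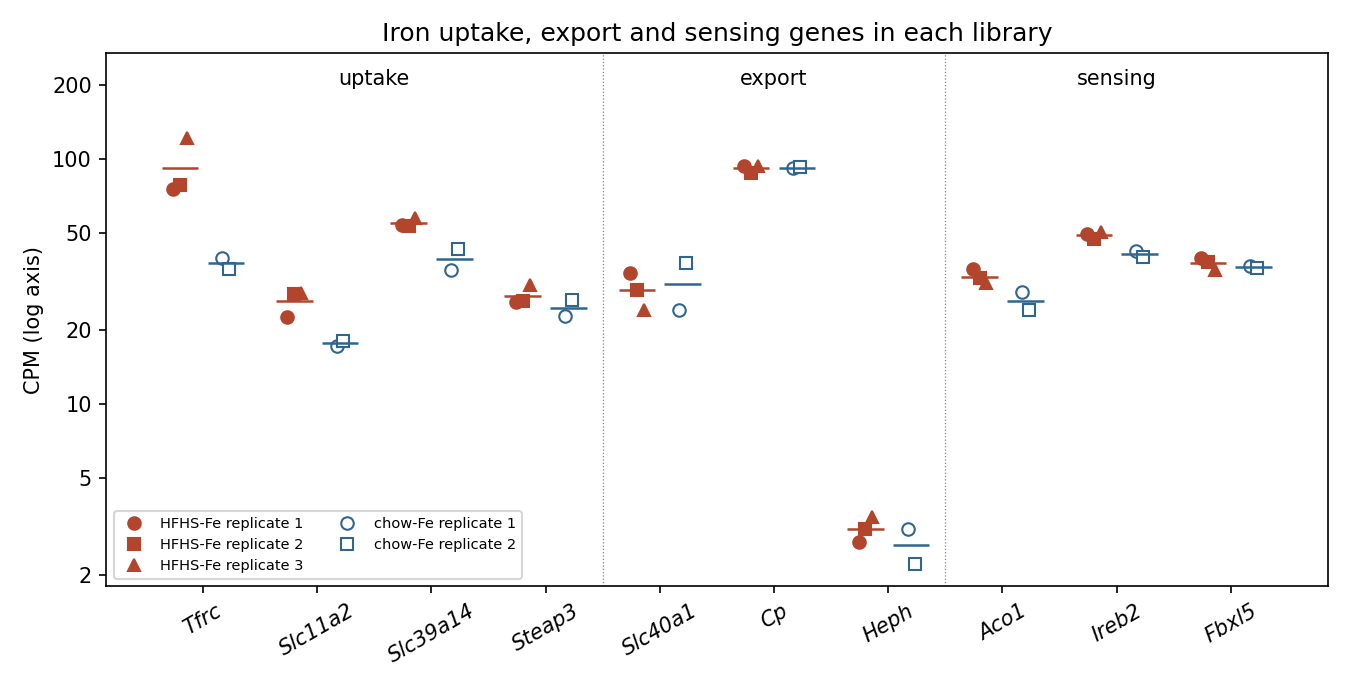
Level of the 10 genes in CPM (counts scaled to a common library size, log axis) in each library, with HFHS-Fe libraries as filled red symbols, chow-Fe libraries as open blue symbols and the group mean as a line. The groups are apart for Tfrc, Slc11a2, Slc39a14, Aco1 and Ireb2 and overlap for the other 5 genes.

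Tfrc encodes transferrin receptor 1, the entry point of transferrin-bound iron (ENSMUSG00000022797, chromosome 16 from 32608920 to 32632794, GRCm38). Its level, in CPM (counts scaled to a common library size), was 75.2, 78.2 and 121.1 CPM in the HFHS-Fe hearts and 39.5 and 35.6 CPM in the chow-Fe hearts. Every HFHS-Fe library lay far above both chow-Fe libraries, and HFHS-Fe replicate 3 lay well above the other HFHS-Fe libraries. The fitted log2 fold change was 1.28 (SE 0.17), a 2.43-fold rise, with an edgeR adjusted p of 3.89e-05. Without HFHS-Fe replicate 3 the log2 fold change was 1.03. Tfrc was the gene of the set that moved most. Its length bin had a median log2 fold change of 0.15, and with the offsets its own was 1.18.

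Slc11a2 encodes DMT1, the transporter that carries ferrous iron out of the endosome and, in the gut, into the cell (ENSMUSG00000023030, chromosome 15 from 100387898 to 100425072). It was at 22.7, 28.2 and 28.2 CPM in the HFHS-Fe hearts and at 17.3 and 18.1 CPM in the chow-Fe hearts. All HFHS-Fe values were above all chow-Fe values. The log2 fold change was 0.57 (SE 0.12), a 1.49-fold rise, with an edgeR adjusted p of 0.00139. With the length and GC offsets it was 0.42 with an adjusted p of 0.0125, the highest over the alternatives, whose lowest was 1.41e-05.

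Slc39a14 encodes ZIP14, which imports iron that is not bound to transferrin, along with zinc and manganese (ENSMUSG00000022094, chromosome 14 from 70303469 to 70351425). Its level was 53.5, 53.3 and 57.6 CPM in the HFHS-Fe hearts, against 35.1 and 42.7 CPM in the chow-Fe hearts. The HFHS-Fe values lay close together and above both chow-Fe values. The log2 fold change was 0.50 (SE 0.10), a 1.41-fold rise, with an edgeR adjusted p of 0.000986. At 10550 bases of exon Slc39a14 is the longest of the 10 genes, and genes in its length bin had a median log2 fold change of 0.32. With the length and GC offsets its log2 fold change was 0.20, with an adjusted p of 0.108 (range over the alternatives 5.28e-06 to 0.108), so the call rests on the scale without offsets.

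Steap3 encodes the endosomal ferrireductase that prepares iron for DMT1 in developing red cells (ENSMUSG00000026389, chromosome 1 from 120190757 to 120272705). It had 26.0, 26.2 and 30.6 CPM in the HFHS-Fe hearts and 22.8 and 26.6 CPM in the chow-Fe hearts, and the groups overlapped. The log2 fold change was 0.16 (95% interval -0.07 to 0.40) with an edgeR adjusted p of 0.268. A rise as large as that of Slc11a2 lies outside this interval, while a smaller difference in either direction lies within it.

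Export genes did not pass the test on the counts as deposited. Slc40a1 encodes ferroportin (ENSMUSG00000025993, chromosome 1 from 45908068 to 45926523). Its level was 34.2, 29.1 and 24.2 CPM in the HFHS-Fe hearts and 24.2 and 37.5 CPM in the chow-Fe hearts. The chow-Fe libraries lay near the bottom and above the top of the range of the HFHS-Fe libraries, so the groups overlapped. Its log2 fold change was -0.08 (95% interval -0.43 to 0.27), with an edgeR adjusted p of 0.744, and it was 0.27 without chow-Fe replicate 2 and -0.36 without chow-Fe replicate 1. No direction can be given for ferroportin in these hearts.

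Cp encodes ceruloplasmin, the copper ferroxidase of plasma that many tissues also make in a membrane-anchored form (ENSMUSG00000003617, chromosome 3 from 19957054 to 20009145). It was at 93.6, 87.8 and 93.0 CPM in the HFHS-Fe hearts and at 91.4 and 92.5 CPM in the chow-Fe hearts. These were the closest groups of the set, with a log2 fold change of -0.0075 (95% interval -0.16 to 0.15) and an edgeR adjusted p of 0.949. Genes in its length bin had a median log2 fold change of 0.32, and with the length and GC offsets Cp was lower, with a log2 fold change of -0.22 and an adjusted p of 0.0258 (range over the alternatives 0.015 to 1.00). Hps3, on the opposite strand, shares 108 exon bases with Cp and had at most 268 counts in a library, against 1225 to 1691 for Cp. Whether counting used strand is not given in the sources used here, so a small part of the Cp counts may belong to its neighbour.

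Heph encodes hephaestin, the ferroxidase related to ceruloplasmin that works beside ferroportin in the gut (ENSMUSG00000031209, chromosome X from 96455359 to 96574485). It was the rarest of the 10 messages, with 44, 43 and 51 counts in the HFHS-Fe libraries and 57 and 40 counts in the chow-Fe libraries. These counts correspond to 2.74, 3.08 and 3.44 CPM in the HFHS-Fe hearts and 3.08 and 2.22 CPM in the chow-Fe hearts. The groups overlapped, and the log2 fold change of 0.22 had a 95% interval of -0.34 to 0.77 and an edgeR adjusted p of 0.544. A difference as large as that of Slc11a2 lies within this interval.

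Among the sensing genes, those of both iron regulatory proteins were modestly higher in HFHS-Fe hearts on the counts as deposited. With the length and GC offsets only Aco1 still passed. The gene of the ligase subunit that removes IRP2 did not pass on either scale. Aco1 encodes IRP1, which is a cytosolic aconitase while it carries an iron-sulfur cluster and an RNA-binding protein once it has lost it (ENSMUSG00000028405, chromosome 4 from 40143081 to 40198338). It was at 35.6, 32.6 and 31.0 CPM in the HFHS-Fe hearts and at 28.5 and 24.2 CPM in the chow-Fe hearts. The groups were apart by a small margin. The log2 fold change was 0.33 (SE 0.10), a 1.26-fold rise, with an edgeR adjusted p of 0.0222. Aco1 is the shortest of the 10 genes, its length bin had a median log2 fold change of 0.030, and with the offsets its log2 fold change was 0.28 with an adjusted p of 0.0423. The call was lost without HFHS-Fe replicate 1, without HFHS-Fe replicate 2 and without chow-Fe replicate 2, with log2 fold changes of 0.27, 0.34 and 0.22 and adjusted p of 0.0922, 0.0566 and 0.189 (range over the alternatives 0.00522 to 0.189).

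Ireb2 encodes IRP2, which is controlled by its own breakdown when iron is plentiful (ENSMUSG00000032293, chromosome 9 from 54863789 to 54912530). Its level was 49.3, 47.2 and 50.02 CPM in the HFHS-Fe hearts and 42.0 and 39.9 CPM in the chow-Fe hearts. The groups did not overlap and each was tight. The log2 fold change was 0.25 (SE 0.082), a 1.19-fold rise, with an edgeR adjusted p of 0.0244. Genes in its length bin had a median log2 fold change of 0.32, and with the length and GC offsets that of Ireb2 was 0.0079 with an adjusted p of 0.951. The call was also lost in DESeq2 (adjusted p of 0.0541), with the replicate number as a block (0.0551), and without HFHS-Fe replicate 1 (0.0672), HFHS-Fe replicate 2 (0.0504) or chow-Fe replicate 2 (0.115), within a range over the alternatives of 0.0223 to 0.957.

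Fbxl5 encodes the F-box protein that holds an iron centre, is stable when iron is present and marks IRP2 for breakdown (ENSMUSG00000039753, chromosome 5 from 43744615 to 43821638). It was at 39.2, 38.1 and 35.2 CPM in the HFHS-Fe hearts and at 36.6 and 35.8 CPM in the chow-Fe hearts. The groups overlapped, with a log2 fold change of 0.050 (95% interval -0.14 to 0.24) and an edgeR adjusted p of 0.691. Its sign turned with the offsets, where the log2 fold change was -0.17 with an adjusted p of 0.145 (range over the alternatives 0.093 to 0.915). Bst1, on the opposite strand, shares 98 exon bases with Fbxl5 and had 10 to 31 counts, against 521 to 677 for Fbxl5.

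**Figure D2:**
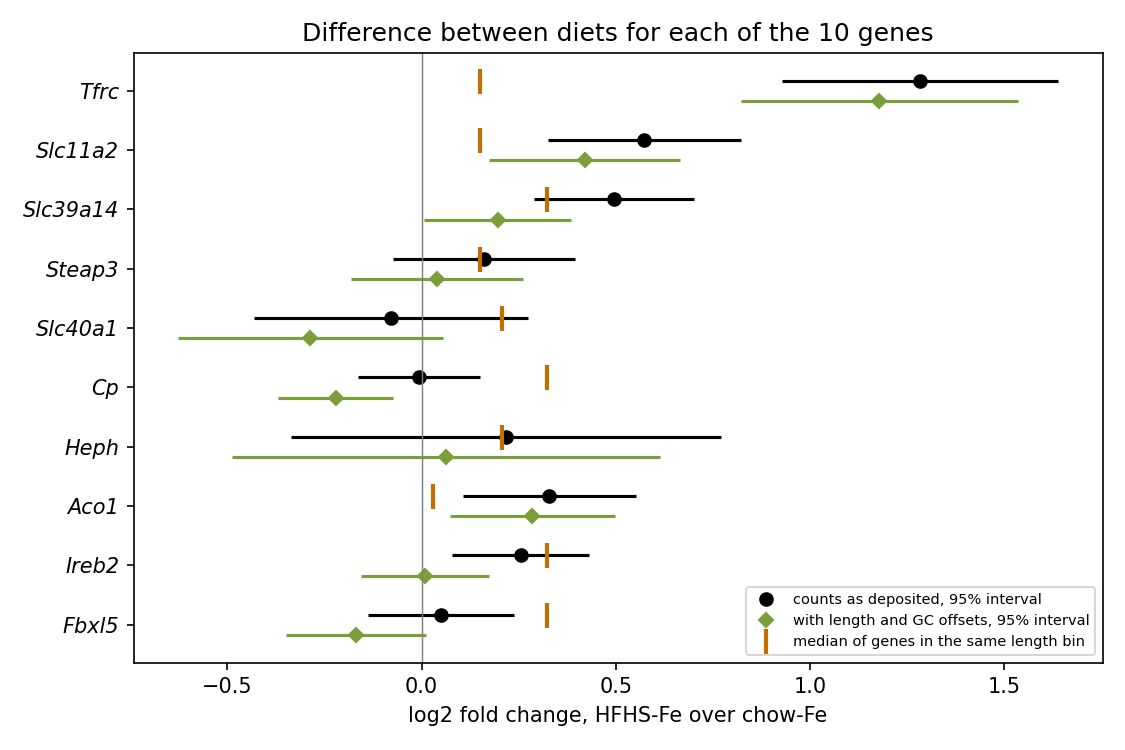
Log2 fold change of each of the 10 genes, HFHS-Fe over chow-Fe, with 95% intervals, from the counts as deposited (black) and with offsets for exon length and GC content (green); orange ticks mark the median of tested genes in the same length bin. Tfrc lies at 1.28 and 1.18, far from its tick at 0.15, whereas Ireb2 lies at 0.25 and 0.0079.

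Levels of different genes were compared per kilobase of exon, with the exon length of the count tables, which joins the exons of all transcripts. In HFHS-Fe hearts Tfrc was the most abundant of the 10 messages on this scale, at 14.8 ± 4.15 CPM per kilobase (SD, n = 3), and Cp followed at 9.56 ± 0.331 CPM per kilobase. In chow-Fe hearts the order was the reverse, with Cp at 9.61 ± 0.0778 CPM per kilobase (SD, n = 2) and Tfrc at 6.07 ± 0.441 CPM per kilobase. Each HFHS-Fe value of Tfrc exceeded each value of Cp, and each chow-Fe value of Tfrc was below each value of Cp.

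Aco1 came next, with a level of 7.36 ± 0.523 CPM per kilobase in HFHS-Fe hearts and 5.86 ± 0.677 CPM per kilobase in chow-Fe hearts. In chow-Fe hearts the levels of Aco1 and Tfrc did not differ beyond their spread. Slc39a14, Ireb2, Steap3, Slc11a2, Fbxl5 and Slc40a1 lay between 3.24 and 5.19 CPM per kilobase in HFHS-Fe hearts and between 2.79 and 4.32 CPM per kilobase in chow-Fe hearts, with neighbours in that order mostly within each other's spread. Heph was lowest, at 0.403 ± 0.0455 CPM per kilobase in HFHS-Fe hearts and 0.346 ± 0.0796 CPM per kilobase in chow-Fe hearts.

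**Figure D3:**
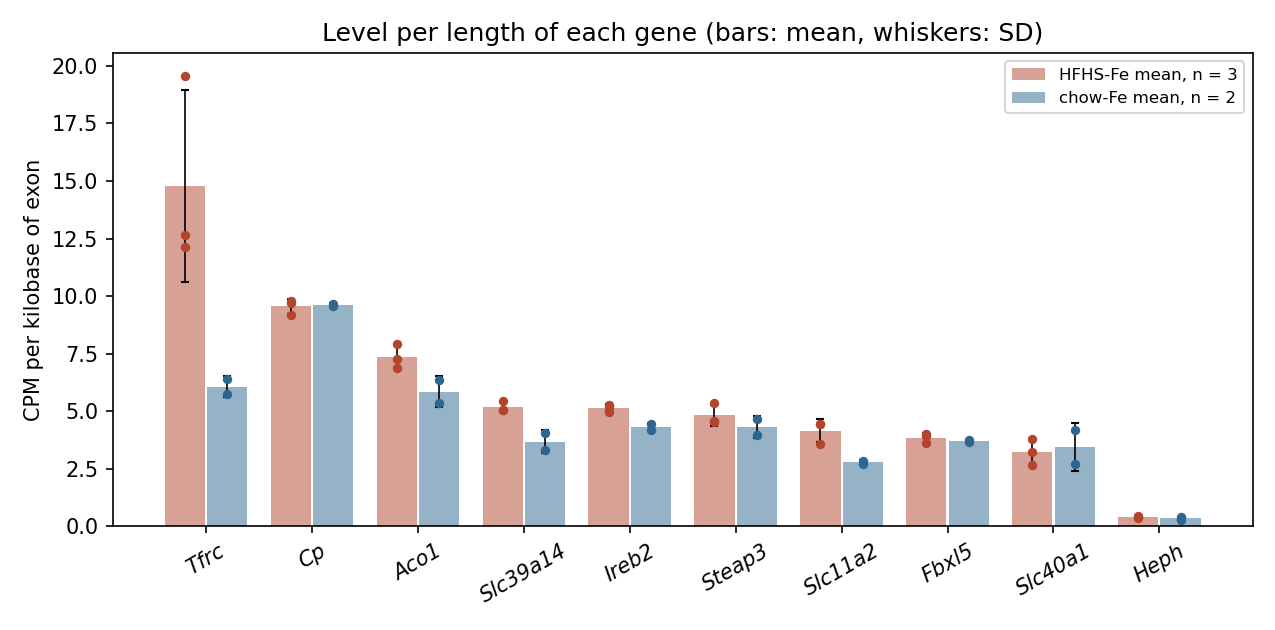
Level per kilobase of exon of the 10 genes, ordered by the HFHS-Fe mean; bars are group means, whiskers the SD and points the libraries (HFHS-Fe red, n = 3; chow-Fe blue, n = 2). Tfrc leads in HFHS-Fe hearts at 14.8 CPM per kilobase, and Cp leads in chow-Fe hearts at 9.61 CPM per kilobase.

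The pattern of Tfrc over the 5 libraries was set beside that of 7981 other genes with at least 10 CPM on average, by the Euclidean distance between log2 CPM profiles centred on their own mean. The nearest genes were Usp9x (distance 0.277), a deubiquitinase, Btbd7 (distance 0.311), Prune2 (distance 0.348), Alg10b (distance 0.368) and Ctnna3 (distance 0.383), the alpha-T catenin of the intercalated disc. Usp9x had 82.1, 82.2 and 103.5 CPM in the HFHS-Fe hearts and 41.0 and 36.9 CPM in the chow-Fe hearts, so it too was highest in HFHS-Fe replicate 3. A likeness over 5 libraries in 2 groups is mostly a likeness of the group difference.

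Beyond these 10, 64 other genes of iron handling were listed by role. Of the 56 tested, 12 rose, 17 fell and 27 did not pass, with a median log2 fold change of -0.10, against -0.01 over all tested genes. Among all tested genes 19.4% passed as higher and 18.7% as lower, and counts in the lists below are to be read against these shares. Once trends with exon length and GC content were allowed for, 10 of the 56 passed as higher and 13 as lower, against 2258 and 2126 of 14193 tested genes. The 8 listed genes that were not tested (Tfr2, Steap1, Cybrd1, Hamp, Hamp2, Tmprss6, Erfe and Hephl1) had 0 to 13 counts per library. The 17 became 11 without HFHS-Fe replicate 2 and 9 without chow-Fe replicate 2.

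Around the transferrin cycle, 1 of 9 tested partners rose and 4 fell. The transferrin gene itself, Trf, had 5.55, 4.37 and 5.94 CPM in the HFHS-Fe hearts, against 9.57 and 12.6 CPM in the chow-Fe hearts. It was lower in every HFHS-Fe library, 2.09-fold in the fit, with an edgeR adjusted p of 0.000317. Hfe, whose product binds transferrin receptor 1 and competes with transferrin, was lower by a log2 fold change of -0.59, and its chow-Fe values of 38.1 and 55.5 CPM were far apart. Without chow-Fe replicate 2 the log2 fold change of Hfe was -0.29, and without chow-Fe replicate 1 it was -0.83, both still called. Exoc6, an exocyst subunit that returns receptor vesicles to the surface in red cell precursors, rose 1.33-fold, and did not pass without chow-Fe replicate 2 (log2 fold change 0.27, against 0.42 in all libraries). Snx3, a sorting protein that recycles the receptor, was 1.16-fold lower and had a log2 fold change of 0.12 with the length and GC offsets. Steap4, a ferrireductase, was the other gene that fell, and it did not pass with the offsets. Picalm, a clathrin adaptor of receptor uptake, did not pass, at 199.2 ± 9.77 CPM in HFHS-Fe hearts (SD, n = 3) and 192.2 ± 5.39 CPM in chow-Fe hearts (SD, n = 2), but was lower with the offsets.

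Of 11 genes of other entry routes, 3 rose and 2 fell. Cacna1c, the L-type calcium channel subunit described as a route for free ferrous iron into heart muscle, was at 319.9, 331.1 and 284.0 CPM in the HFHS-Fe hearts and at 140.5 and 178.1 CPM in the chow-Fe hearts. It rose 1.96-fold with an edgeR adjusted p of 5.69e-06; its exons sum to 21191 bases, and with the length and GC offsets its log2 fold change of 0.97 was 0.48 and still passed. Flvcr2, a transporter of the family named for haem transport, rose 2.17-fold from a low level. Scara5, a receptor for ferritin found on stromal cells, was 1.72-fold lower, and Cd163, the macrophage receptor for haemoglobin bound to haptoglobin, was 1.43-fold lower but did not pass without chow-Fe replicate 2 (log2 fold change -0.32, against -0.52 in all libraries). Slc48a1, which moves haem out of lysosomes, was at 38.6 ± 4.10 CPM in HFHS-Fe hearts (SD, n = 3) and 47.2 ± 7.91 CPM in chow-Fe hearts (SD, n = 2) and did not pass. Its log2 fold change of -0.29 was -0.45 without chow-Fe replicate 1 and -0.11 without chow-Fe replicate 2, and it passed as lower in 5 alternatives: with library totals, with no filter, with the replicate block, without HFHS-Fe replicate 3 and without chow-Fe replicate 1. Lrp1, the large scavenger receptor that takes up haem bound to hemopexin, was the third gene that rose, and its sign turned with the offsets (log2 fold change -0.19, not passed).

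Of 7 tested genes of hepcidin signalling, a pathway best known from liver, 5 fell and 1 rose; with the length and GC offsets 2 fell (Id1 and Smad7) and 1 rose. Id1, a direct target of bone morphogenetic protein signalling, was at 22.2, 25.7 and 26.8 CPM in the HFHS-Fe hearts and at 59.1 and 56.2 CPM in the chow-Fe hearts, 2.32-fold lower with an edgeR adjusted p of 4.36e-07. The ligand gene Bmp6 was 1.37-fold lower and the inhibitory Smad7 1.38-fold lower; Bmp6 did not pass with those offsets, nor did Hfe2 (hemojuvelin) and Atoh8, the other genes that fell. Without chow-Fe replicate 2 neither Bmp6 (log2 fold change -0.35, against -0.45 in all libraries) nor Smad7 (-0.26, against -0.46) passed. Smad7 also did not pass without HFHS-Fe replicate 1 (-0.35) or HFHS-Fe replicate 2 (-0.43). Bmp2 was at 1.34 ± 0.573 CPM in HFHS-Fe hearts (SD, n = 3) and 1.73 ± 0.303 CPM in chow-Fe hearts (SD, n = 2) and did not pass. Neo1, the receptor that binds hemojuvelin, rose 1.57-fold.

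Of 8 genes of the FBXL5 ubiquitin ligase and of the cytosolic iron-sulfur machinery, 2 rose and 2 fell. Herc2, a ligase that degrades FBXL5, was at 76.0, 76.1 and 75.5 CPM in the HFHS-Fe hearts and at 40.3 and 42.6 CPM in the chow-Fe hearts. It rose 1.83-fold with an edgeR adjusted p of 1.64e-06, and its log2 fold change of 0.87 was 0.46 with the length and GC offsets, which also passed. The ligase scaffold gene Cul1 rose 1.15-fold, close to the threshold. In 4 of the 5 fits that left out a library it was not called, with log2 fold changes of 0.17 to 0.21 against 0.20 in all libraries, nor was it in DESeq2, with no filter, with library totals or with length offsets. The ring-finger subunit gene Rbx1 was 1.41-fold lower and Ciao2b, which hands iron-sulfur clusters to their targets, 1.34-fold lower; neither passed with the offsets. The adaptor gene Skp1a did not pass, at 172.4 ± 4.30 CPM in HFHS-Fe hearts (SD, n = 3) and 195.3 ± 7.39 CPM in chow-Fe hearts (SD, n = 2).

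Of 7 other messages known for an iron-responsive element, 3 rose and 3 fell. The ferritin light chain gene Ftl1 had 109.7, 113.4 and 139.6 CPM in the HFHS-Fe hearts, against 282.9 and 307.3 CPM in the chow-Fe hearts, a 2.44-fold lower level with an edgeR adjusted p of 2.67e-07. Fth1 was 1.57-fold lower and Alas2, which starts haem synthesis in red cell precursors, 3.45-fold lower. Alas2 is also in the list of red cell markers below, of which 7 of 7 tested fell. Epas1, which encodes HIF-2 alpha, and Cdc42bpa, a kinase gene, were among those that rose, and Cdc42bpa did not pass with the offsets. Cdc14a was at 3.11 ± 0.404 CPM in HFHS-Fe hearts (SD, n = 3) and 4.18 ± 1.05 CPM in chow-Fe hearts (SD, n = 2) and did not pass, but it was lower with the length and GC offsets (log2 fold change -0.71, against -0.42 without them). Genes in which the search found an element in the 5′ untranslated region included Fth1, Ftl1 and Alas2, which fell, and Slc40a1, which had no call. These are not all the messages with such an element, and the list also held genes that rose. Reads of Fth1 and Ftl1 may be split with their processed pseudogenes, so both levels are uncertain.

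Of 6 genes that make or degrade the Tfrc message, 1 rose and 5 did not pass; with the length and GC offsets 1 of these 5 passed as lower (Rc3h2, log2 fold change -0.49, against -0.037 without offsets), and the one that rose did not pass. Hif1a, a transcription factor that can drive Tfrc, rose 1.29-fold with an edgeR adjusted p of 0.0303, the groups overlapped, and it did not pass without chow-Fe replicate 2 (log2 fold change 0.15, against 0.37 in all libraries), HFHS-Fe replicate 1 or HFHS-Fe replicate 2, or with the offsets (0.30). Zfp36, which speeds the decay of short-lived messages, was at 15.8 ± 4.72 CPM in HFHS-Fe hearts (SD, n = 3) and 19.3 ± 2.67 CPM in chow-Fe hearts (SD, n = 2). Of 5 tested genes that act on the turnover of DMT1 or ferroportin, 1 fell: App, whose product stabilises ferroportin at the cell surface, was 1.13-fold lower, with an edgeR adjusted p of 0.0499 that was lost with each library left out. Ndfip1, an adaptor for the removal of DMT1, was at 66.0 ± 2.58 CPM in HFHS-Fe hearts (SD, n = 3) and 72.0 ± 3.53 CPM in chow-Fe hearts (SD, n = 2), did not pass, and was higher with the offsets.

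Of 5 ferritin and chaperone genes, Fth1 and Ftl1 fell and Ncoa4 rose. Ncoa4, which delivers ferritin for breakdown, had 39.7, 39.4 and 34.3 CPM in the HFHS-Fe hearts and 23.5 and 21.9 CPM in the chow-Fe hearts. It rose 1.67-fold with an edgeR adjusted p of 5.90e-05, also with the offsets. The iron chaperone gene Pcbp2 was at 139.2 ± 6.73 CPM in HFHS-Fe hearts (SD, n = 3) and 147.8 ± 1.72 CPM in chow-Fe hearts (SD, n = 2) and did not pass.

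**Figure D4:**
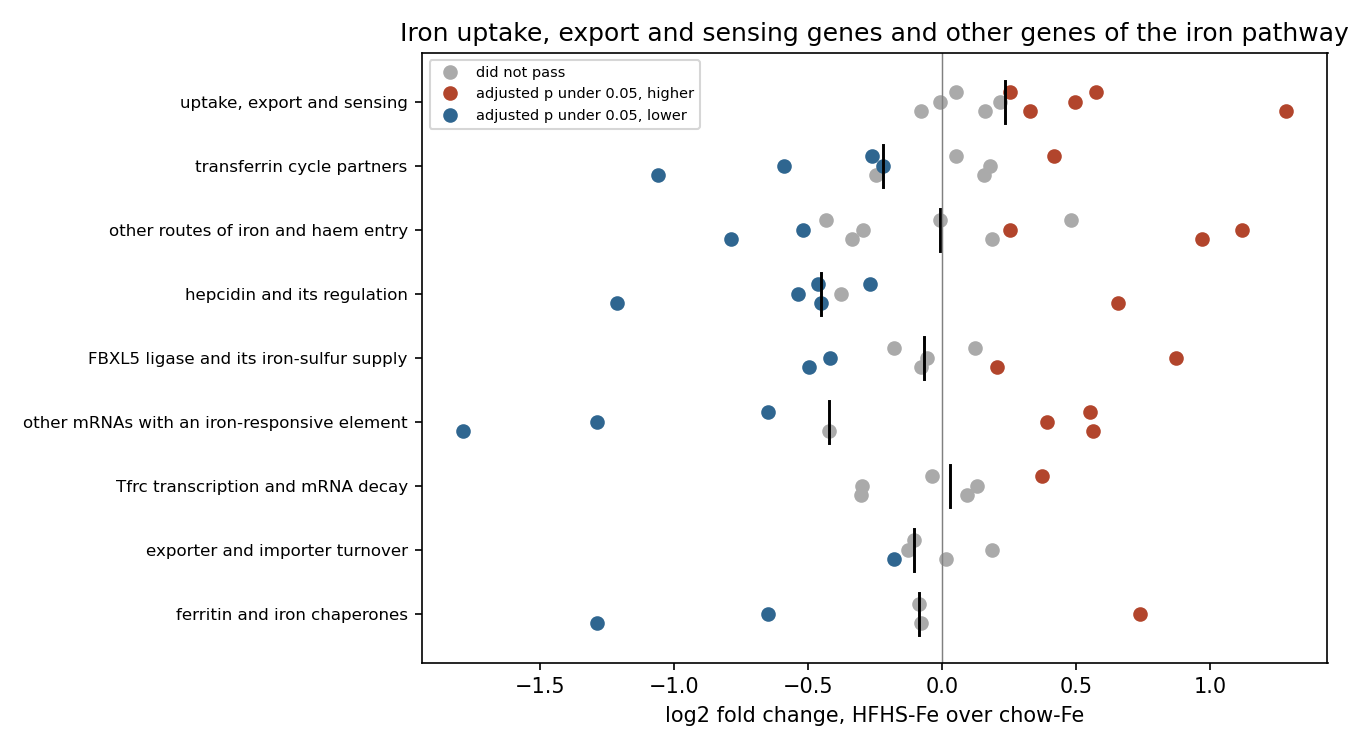
Log2 fold change, HFHS-Fe over chow-Fe, of each tested gene in the uptake, export and sensing set and in 8 lists of other iron genes; red and blue points passed an adjusted p of 0.05 as higher or lower, grey points did not pass, and black bars are list medians. The 10 genes have a median of 0.24 (0.051 with the length and GC offsets, not drawn), with no gene that passed as lower without offsets. Alas2, Ftl1, Id1 and Trf are among the genes at the left.

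Several members are also made by cells other than heart muscle, and the summed level of those cells' markers moved with diet. Markers of red cells and their precursors, which need Tfrc for haemoglobin, summed to 250.4, 347.6 and 524.5 CPM in the HFHS-Fe hearts and to 1703 and 1487 CPM in the chow-Fe hearts, and 7 of 7 tested markers fell. Tfrc was thus higher in the group in which these markers were lower, while within HFHS-Fe hearts both were highest in replicate 3. Markers of macrophages, which recycle iron through ferroportin, summed to 138.8 to 161.0 CPM in HFHS-Fe hearts and 285.3 to 324.6 CPM in chow-Fe hearts, and 11 of 11 fell. Alas2 among the red cell markers and Cd163 among the macrophage markers are also counted in the iron lists above. Fibroblast markers summed to 715.0 to 752.1 CPM in HFHS-Fe hearts and 1155 to 1237 CPM in chow-Fe hearts, with 7 of 7 lower. Endothelial markers summed to 778.4 to 807.9 CPM in HFHS-Fe hearts and 995.3 to 1027 CPM in chow-Fe hearts, with 4 of 6 lower.

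Heart muscle markers summed to 61412 to 63859 CPM in HFHS-Fe hearts and to 56774 to 62818 CPM in chow-Fe hearts, and 3 of 9 rose and 4 fell. Of 5 pericyte markers 1 rose and 2 fell, with sums of 1170 to 1251 CPM in HFHS-Fe hearts and 1350 to 1359 CPM in chow-Fe hearts. Mesothelial markers summed to 8.70 to 11.3 CPM in HFHS-Fe hearts and 7.09 to 9.23 CPM in chow-Fe hearts, with 2 of 3 tested higher. The most abundant, Wt1, did not pass. Msln had 23, 21 and 23 counts in the HFHS-Fe libraries and 0 and 0 in the chow-Fe libraries, and Upk3b 46, 26 and 24 against 0 and 10. Fat markers summed to at most 0.531 CPM in any library. Markers of liver, the main source of plasma ceruloplasmin and transferrin, summed to 0.796 to 13.4 CPM in HFHS-Fe hearts and 1.07 to 5.42 CPM in chow-Fe hearts, and the 2 tested did not pass. With the length and GC offsets 7 of 7 red cell, 10 of 11 macrophage, 5 of 7 fibroblast and 5 of 6 endothelial markers were lower, and 4 of 9 heart muscle markers were higher and 4 lower. Over all genes 2258 of 14193 were then higher and 2126 lower. No marker of any list was at 0 in every library. No marker of the red cell, macrophage or fibroblast lists rose in edgeR, also at an unadjusted p of 0.05, nor in DESeq2. In whole tissue, fewer cells of a type and less RNA per cell cannot be told apart, and the part of these markers in the iron genes was not tested.

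The 5 libraries held 14362766 to 17774735 counts, of which mitochondrially encoded genes took 30.3% to 33.8%. The limit that 0 counts would set, 3 counts, is 0.169 to 0.209 CPM by library, for counting error only, and the rarest of the 10 genes lay at 2.22 CPM or more. The message of each of these genes was measured and not its protein, which the iron regulatory system controls as well.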

How the data were processed

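Poly-A RNA was sequenced in 3 HFHS-Fe and 2 chow-Fe heart libraries, which the labels do not state to be separate mice. The values used are the raw counts per gene deposited by the authors, 1 table per library. The submitters' processing notes name Trimmomatic 0.36, STAR 2.5.2b, GRCm38 and, for counting, featureCounts from Subread 1.5.2. The sources used here give neither options and strand setting nor the annotation release. Symbols and transcripts came from GENCODE M21 (GRCm38), in which each of the 10 genes had the same start and end as in the tables.

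The test was edgeR 4.0.16 under R 4.3.3 (filterByExpr, TMM, glmQLFit and glmQLFTest on diet, Benjamini-Hochberg adjusted p of 0.05 over all tested genes). Log2 fold changes are HFHS-Fe over chow-Fe. Standard errors and 95% intervals are approximations derived from each coefficient with its F statistic. CPM were scaled by TMM, and summed markers by total counts. In the pathway lists, the genes named were up to 4 that passed with the smallest p and the 1 with the highest level per kilobase that did not; Steap4, Lrp1, Epas1, Cdc42bpa, Hfe2, Atoh8, Rc3h2, the overlapping genes and the untested genes were named after their values were seen. The values of 1 gene that this rule names are not reported here. Hemojuvelin (Hfe2 in the tables) and Narfl were found under older symbols, and 1 red cell marker was not analysed here.

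Offsets came from a smooth trend per library on exon length, or on exon length and GC content, which was known for 99.8% of tested genes (mgcv 1.9.3). DESeq2 1.42.0, other normalizations and filters, each library left out and a replicate block were the other alternatives. No pair of libraries was as alike as sampling noise, with a chi-square per degree of freedom of at least 2.64. On simulated data for this comparison (13949 genes, 50 changed at each fold), recovery was 16% for a 1.25-fold change, 54% for 1.5-fold, 82% for 2-fold and 98% for 4-fold, and 7 unchanged genes were called. Far fewer genes were changed there than the 38.1% that passed in the data, and no length trend was put in. The adjusted p is therefore stricter in the simulation, and these rates do not carry over directly. The members and lists were chosen with earlier results of these data known.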

Additional observations from a re-analysis of the deposited data

How the results depend on the processing

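Tfrc and Slc11a2 kept their direction and their call under every alternative tried. Without each library in turn 3 to 5 of the 10 genes passed as higher and 0 as lower, and 9 to 13 of the other iron genes passed as higher and 9 to 15 as lower. Library totals alone lower all fold changes, so that their median is -0.11 and 37.5% of calls are higher against 50.9% with TMM. With them 3 of the 10 genes passed, and 38.5% of all tested genes. Aco1 (0.23) and Ireb2 (0.16) lost their call, and Fbxl5 (-0.045) and Picalm (-0.042) turned. With length offsets, and with length and GC offsets, 3 of the 10 genes passed as higher and 1 as lower, and 30.1% and 30.9% of all tested genes passed. Log2 fold changes were then 0.22 and 0.20 for Slc39a14, 0.0074 and 0.0079 for Ireb2, -0.26 and -0.22 for Cp and -0.20 and -0.17 for Fbxl5. Under the same offsets Snx3 (0.14 and 0.12), Skp1a (0.035 and 0.086), Ndfip1 (0.29 and 0.34) and Pcbp2 (0.034 and 0.037) turned positive and Picalm (-0.33 and -0.30) negative. Ireb2 was not called in DESeq2 (0.26). Over the fits without each library, log2 fold changes ran from 0.22 to 0.45 for Aco1, 0.22 to 0.29 for Ireb2, -0.36 to 0.27 for Slc40a1 and -0.022 to 0.021 for Cp. A lone chow-Fe library is there assumed to vary like the HFHS-Fe libraries. With the replicate block, Slc40a1 was at 0.065 and Ireb2 at 0.24 without a call, and 5332 genes passed in place of 5417; deviations of same-numbered libraries correlated at 0.035 and 0.026, so the numbers are not taken as pairs. Low counts limit Heph, and the small numbers of libraries limit every interval. Except where a value above shows it, the cause of these changes was not tested.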
